A study of Rattus norvegicus with 72 samples.

Results

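The IGF binding proteins and the growth hormone axis of the liver were followed here through 8 genes, namely Igf1, Igfals, Igfbp1, Igfbp2, Igfbp3, Igfbp4, Ghr and Socs2. They were chosen by name, with earlier results of these data known. All 8 were found among the 14506 rat genes with a probe set on the array. Each is read from 1 probe set, and no filter on low values was applied, so all 8 entered every test.

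Growth hormone from the pituitary acts on hepatocytes through its receptor, the product of Ghr, which works through the kinase JAK2 and the transcription factor STAT5B. Hepatic targets of this pathway include Igf1, the circulating growth factor, Igfals, whose product holds IGF1 and IGFBP3 in a long-lived complex in blood, and Socs2, which encodes an inhibitor of the receptor's signalling. IGFBP1, by contrast, is a small binding protein whose gene is repressed by insulin, in part through FOXO1, and is known as an early gene of liver regeneration. IGFBP2, IGFBP3 and IGFBP4 bind the same ligands, IGFBP3 in liver being made mainly by non-parenchymal cells.

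Rat liver RNA had been hybridised to 72 Affymetrix Rat Gene 1.0 ST arrays. They came from 36 rats, 4 for each of 3 diets and 3 times. The diets were chronic ethanol (EtOH), a high fat control (HF) and a pair-fed carbohydrate control (CHO). Every animal underwent partial hepatectomy (PHx), the removal of part of the liver, after which the remnant regrows. The piece taken at surgery gave the control array of an animal, and the remnant 1, 6 or 24 h later gave the PHx array. There is no sham-operated group, so a response is the whole change from the excised piece to the remnant and includes the passage of the hours. The sources used here do not give strain, sex, age, diet composition, length of feeding or hour of surgery, and a 12 h time that the series text names was not analysed here. The source names exchange HF and CHO relative to the titles and diet tags, which were followed. If the source names are right, every level, response and call given below for HF is that of CHO, and the reverse. HF minus CHO then changes sign and EtOH minus HF and EtOH minus CHO trade places. EtOH minus the mean of both control diets stays as it is. The PHx array of EtOH 24 h replicate 4 carries a high fat tag, is marked as an outlier and was not used.

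The submitters marked 9 arrays as outliers. Both arrays remained for 27 animals. At 1, 6 and 24 h these were 4, 4 and 3 animals on EtOH, 3, 2 and 3 on HF, and 3, 3 and 2 on CHO. The diet comparison before surgery used 29 control livers (EtOH 12, HF 9, CHO 8), 2 CHO controls being left out because their columns in the authors' table without outliers hold the values of the same animals' PHx arrays. With the scan day as block, an array alone on its day carries no weight in the fitted diet differences. Before surgery this holds for EtOH 24 h replicate 3 and CHO 6 h replicate 4, and among the remnants for CHO 6 h replicate 4. Values are on a log2 scale and array medians lie between 4.54 and 4.77. Levels near these medians are not shown to be above background, since no detection calls were used. Among the members this touches Igfbp2, whose control levels ran from 4.88 to 7.17. The 8 hepatocyte markers together stood at 15.53 to 15.78 (log2 of their summed linear values) in the control livers, so that the tissue matched its label. In whole liver, fewer cells of a type and less RNA per cell cannot be told apart. The 3 times are different animals scanned on different days, which cannot be told apart from time, but every response is measured within an animal whose 2 arrays share a scan day. Unless a diet is named, a response given within a scan day is the plain mean over that day's animals, not weighted equally by diet. At 6 h the former of the 2 days given, scan day 1, holds no HF animal with both arrays. At 24 h the latter, scan day 6, holds no EtOH animal with both arrays.

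Promoter sequences of 7 of the 8 genes were matched in RefSeq (build GRCr8) by symbol. Socs2 was not among them. The windows run from 250 bases before to 50 after the start site and were searched on both strands for CAAAACA, a core of the insulin response element that FOXO factors bind, and for TTCNNNGAA, the palindrome that STAT5 binds. CAAAACA occurred in 6.28% of all 33469 rat promoter windows and in those of Igfbp1 and Igf1. It began 121 bases before the start site of Igfbp1 and 67 bases before that of Igf1. TTCNNNGAA, present in 8.87% of all windows, was in none of the 7. A match is a description of the letters, and a missing one says only that these letters are not in the window. The 250 bases before the start site are given for Igfbp1, the member that rose most, for Igf1, the other gene with a match, and for Igfbp3, which lies next to Igfbp1 on chromosome 14 with 0 protein-coding genes between them and which moved the other way. Capitals mark CAAAACA.
Igfbp1, chr14:86261027-86261276, plus strand: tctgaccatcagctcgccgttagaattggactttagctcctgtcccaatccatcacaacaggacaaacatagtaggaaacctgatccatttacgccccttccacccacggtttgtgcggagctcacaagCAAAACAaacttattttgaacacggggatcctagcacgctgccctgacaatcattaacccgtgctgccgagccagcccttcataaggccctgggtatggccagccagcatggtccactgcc
Igf1, chr7:24172282-24172531, plus strand: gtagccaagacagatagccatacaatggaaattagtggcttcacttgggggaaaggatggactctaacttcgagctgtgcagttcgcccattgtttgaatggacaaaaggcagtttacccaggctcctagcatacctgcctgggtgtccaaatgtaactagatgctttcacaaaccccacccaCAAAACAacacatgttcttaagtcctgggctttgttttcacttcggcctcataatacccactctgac
Igfbp3, chr14:86277945-86278194, minus strand: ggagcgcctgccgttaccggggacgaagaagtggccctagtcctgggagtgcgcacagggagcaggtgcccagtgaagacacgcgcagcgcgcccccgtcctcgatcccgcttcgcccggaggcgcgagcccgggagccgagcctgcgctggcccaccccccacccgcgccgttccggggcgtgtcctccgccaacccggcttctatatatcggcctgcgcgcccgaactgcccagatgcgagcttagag

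Before surgery, Igfbp1 was the one member that passed the test between ethanol-fed rats and the control diets. Its level in the 12 EtOH livers ranged from 7.93 to 11.26 around a median of 9.50. In the 9 HF livers it ranged from 5.30 to 7.74 around 7.12, and in the 8 CHO livers from 6.35 to 9.44 around 7.78. All 12 EtOH livers lay above every HF liver used, whereas EtOH and CHO livers overlapped. The HF controls left out as outliers stood at 8.01 (1 h replicate 3), 7.89 (6 h replicate 1) and 8.08 (24 h replicate 3). With them HF would overlap the EtOH range as well. The EtOH level exceeded the mean of both controls by 2.20 (log2, 95% confidence interval 1.51 to 2.89, 4.6-fold, limma adjusted p = 2.69e-05). It was the only member called, 1 of 8 against 16.8% of all genes, where called means that the p adjusted over all genes by the Benjamini-Hochberg method was under 0.05. The same holds against each control diet, with Igfbp1 higher by 2.75 than in HF (0.38 SE, adjusted p = 9.05e-06) and by 1.65 than in CHO (0.42 SE, adjusted p = 0.0093). These comparisons called 13.5% and 11.8% of all genes. Within cohorts the EtOH minus controls difference of Igfbp1 was 1.46, 2.34 and 2.97 in the animals later studied at 1, 6 and 24 h, with adjusted p = 0.197 in the first. Against CHO alone it was 0.60, 1.69 and 2.91 in these cohorts, with a call only in the last (adjusted p = 0.022), and against HF alone 2.32, 2.99 and 3.04, with calls in the last 2. The lowest EtOH level, 7.93, is that of EtOH 24 h replicate 3. That liver and CHO 6 h replicate 4 (7.48) were each alone on their scan day and have no weight in these fitted differences.

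None of the other 7 members was called between diets in the control livers. For Socs2 and Igfbp2 the intervals were wide, EtOH minus CHO being 0.60 (95% interval -0.07 to 1.28) and 0.53 (-0.01 to 1.07). In limma, Socs2 against CHO was called without the scan day block (0.84, adjusted p = 0.0488). It was also called with a replicate block by cohort and number (0.86, adjusted p = 0.0227). Igf1 varied little, with levels of 11.90 to 12.22 in EtOH, 11.99 to 12.16 in HF and 12.05 to 12.28 in CHO. The fitted EtOH minus controls difference of Igf1 was -0.03, and its confidence interval of -0.11 to 0.06 leaves out any change as large as the 6 h response given below. Igfals and Igfbp3, partners of IGF1 in its circulating complex, both had a difference of -0.21 with unadjusted p = 0.0202 and 0.0313, neither of which passed adjustment (adjusted p = 0.0971 and 0.133). Socs2 spread widely within each diet, with levels of 8.20 to 10.13 in EtOH, 7.94 to 10.09 in HF and 7.34 to 9.24 in CHO, and its difference of 0.39 had an interval of -0.15 to 0.93. Within cohorts the Socs2 difference was 0.05, -0.26 and 1.56 in the animals of 1, 6 and 24 h, the last with adjusted p = 0.0117. The value of 1.56 gives no weight to EtOH 24 h replicate 3, which was alone on its scan day. At 8.63 it had the lowest Socs2 level of the EtOH controls of that cohort. Between HF and CHO 0 of 8 members were called in limma against 0.165% of all genes, with 3 members at an unadjusted p under 0.05. These were Ghr (-0.23, adjusted p = 0.317), Igfbp1 (-1.10, unadjusted p = 0.0175) and Igfbp2 (0.62, adjusted p = 0.623). In the EtOH minus controls comparison 8 of 10 macrophage markers were higher, beside 16.8% of all genes called. Their summed level was 11.02 to 11.84 in EtOH against 10.67 to 11.41 in HF and 10.80 to 11.40 in CHO. The hepatocyte sum had a median of 15.65 in EtOH, 15.64 in HF and 15.64 in CHO. The part of the macrophage markers in the Igfbp1 difference was not tested.

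**Figure D1:**
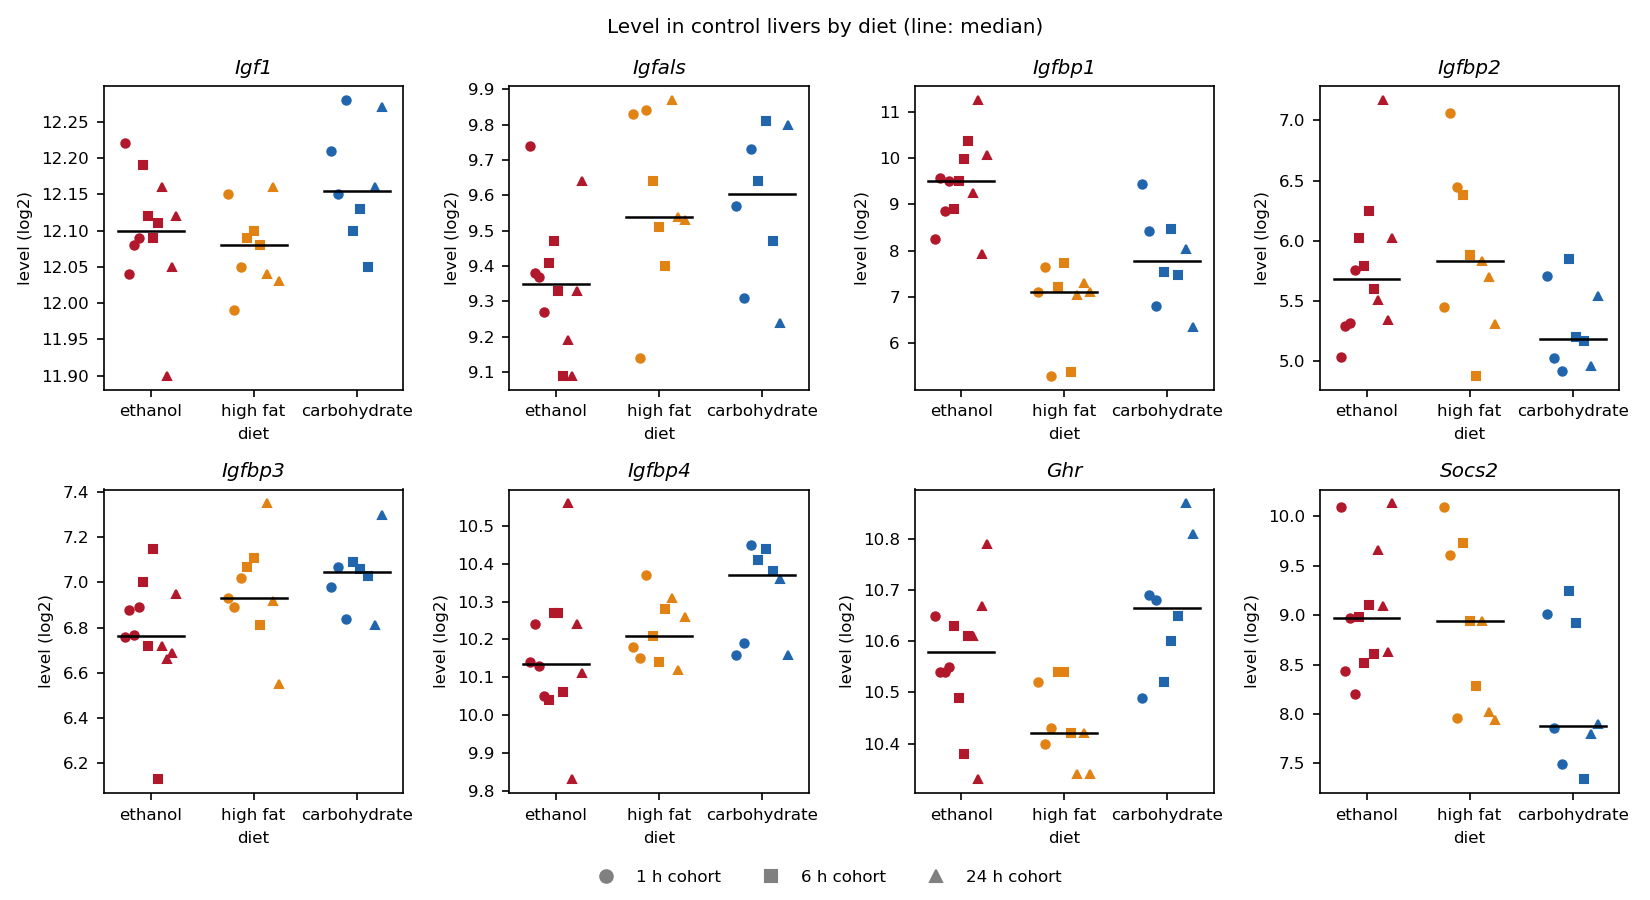
Level (log2, vertical axes) of each member in the control livers, by diet (horizontal axes); each point is an animal, its shape gives the cohort and the black line is the median. Igfbp1 is the panel in which the ethanol points (7.93 to 11.26) stand above all high fat points (5.30 to 7.74), and the Igf1 panel spans only 11.90 to 12.28. Control arrays left out of the fit are not drawn.

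After surgery the members fell into a fast rise of Igfbp1, a passing rise of Igfbp4, and falls of Igfals, Igf1, Igfbp3, Ghr and Socs2 that came later. In the mean of the diets 1 of 8 members was called at 1 h, against 10.3% of all genes. At 6 h 6 were called, 2 higher and 4 lower, against 39.9% of all genes. At 24 h 6 were called, 1 higher and 5 lower, against 34.1% of all genes. The median response of the members was 0.08, -0.24 and -0.51 at the 3 times and that of all genes -0.01, -0.00 and -0.03.

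**Figure D2:**
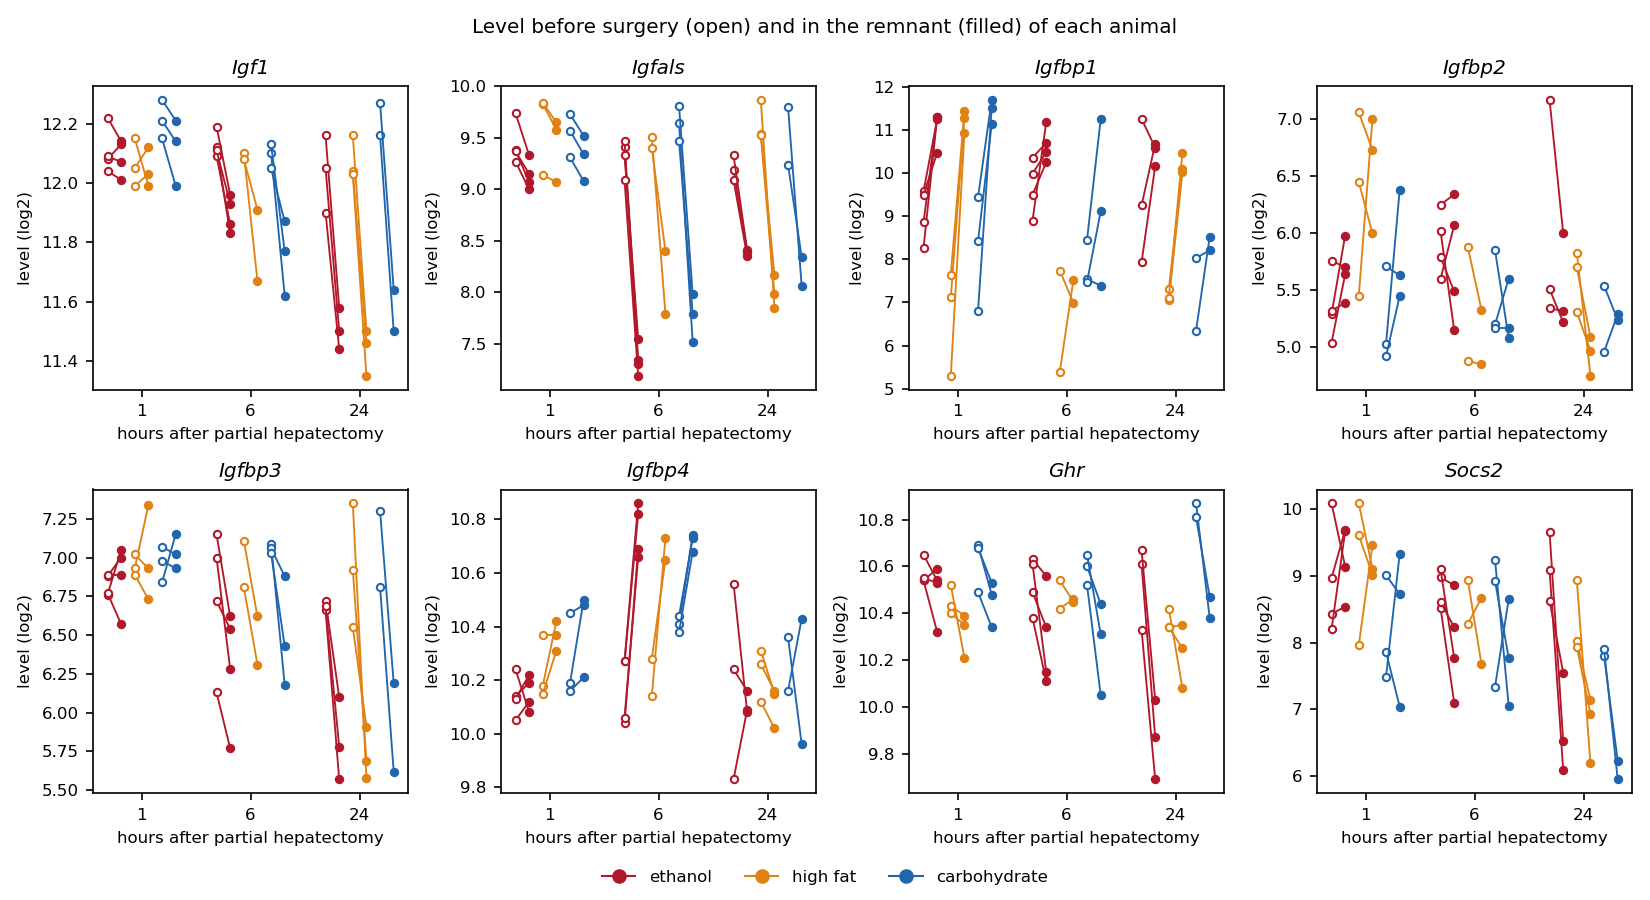
Level (log2, vertical axes) of each member in the 27 animals with both arrays, before surgery (open) and in the remnant (filled), joined within an animal and coloured by diet, against hours after surgery. At 1 h every Igfbp1 line rises, to between 10.47 and 11.70, and at 6 h every Igfals line falls, to between 7.19 and 8.40.

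Igf1, the ligand, held its level for the first hour and then fell in every animal. At 1 h its within-animal changes were -0.08, -0.03, 0.05 and -0.02 in EtOH, -0.16, 0.04 and 0.06 in HF, and -0.07, -0.16 and -0.07 in CHO, a mean response of -0.05 that was not called (adjusted p = 0.634). At 6 h they were -0.22, -0.29, -0.24 and -0.19 in EtOH, -0.44 and -0.17 in HF, and -0.48, -0.35 and -0.18 in CHO. At 24 h they were -0.58, -0.47 and -0.55 in EtOH, -0.58, -0.65 and -0.68 in HF, and -0.65 and -0.63 in CHO. The diets overlapped at 6 h, whereas at 24 h both CHO falls were deeper than all 3 EtOH falls, with HF reaching from the deepest EtOH value to below both CHO values. Only 1 of the 9 falls at 6 h, that of CHO replicate 2, was as deep as the shallowest at 24 h. The mean response of Igf1 was -0.29 at 6 h (0.050 SE, adjusted p = 1.76e-05, 9 of 9 animals) and -0.60 at 24 h (0.051 SE, adjusted p = 3.7e-10, 8 of 8 animals), or 1.22-fold and 1.52-fold lower. It was called in all 3 diets at both times, but the 6 h call was lost in EtOH without EtOH 6 h replicate 2 (-0.22, adjusted p = 0.0568), in CHO without CHO 6 h replicate 2 (-0.27, adjusted p = 0.0563) and in HF without HF 6 h replicate 3 (-0.17, adjusted p = 0.614). Within scan days the 6 h mean was -0.33 (adjusted p = 0.0674) and -0.28 (adjusted p = 0.023), and the 24 h mean -0.59 and -0.66.

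Igfals, the acid-labile subunit of the circulating complex, had the deepest fall at 6 h of the 8 genes. In EtOH the remnants stood at 7.30, 7.34, 7.55 and 7.19 at 6 h, where the same animals' control pieces had 9.41, 9.47, 9.33 and 9.09. In HF the levels went from 9.51 and 9.40 to 7.79 and 8.40, and in CHO from 9.64, 9.81 and 9.47 to 7.52, 7.98 and 7.79. No 6 h remnant reached any control level, the lowest control being 9.09. In the mean of diets Igfals responded by -1.74 at 6 h (0.083 SE, adjusted p = 3.73e-15, 9 of 9 animals), 3.33-fold lower, and -2.12 and -1.65 within 2 scan days. At 1 h Igfals had already declined slightly in 10 of 10 animals, by 0.07 to 0.41, a mean of -0.23 whose adjusted p was 0.0541. By 24 h the mean response was -1.26 (0.086 SE, adjusted p = 5.7e-12, 8 of 8 animals), less deep than at 6 h. Igfals was called lower in every diet at 6 h (-1.98 in EtOH, -1.36 in HF, -1.88 in CHO) and at 24 h (-0.82, -1.65 and -1.31).

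Igfbp1, the insulin-repressed binding protein, rose within the first hour in 10 of 10 animals. The EtOH animals went from 8.26, 9.58, 8.86 and 9.50 to 11.30, 11.25, 11.29 and 10.47. The HF animals went from 7.12, 7.64 and 5.30 to 11.28, 11.44 and 10.93, and the CHO animals from 9.44, 8.42 and 6.81 to 11.70, 11.13 and 11.50. The 1 h remnants of all diets thus lay in one narrow band whatever the level before surgery, and the largest change, 5.63, was that of the animal with the lowest control level. The 1 h mean of Igfbp1 was 3.26 (0.32 SE, 95% interval 2.60 to 3.92, 9.56-fold, adjusted p = 4.88e-08). It was 2.97 within scan day 7 and 3.38 within scan day 8. By diet the 1 h response was 2.03 in EtOH (0.50 SE, adjusted p = 0.0217), 4.53 in HF (0.58 SE, adjusted p = 2.47e-05) and 3.22 in CHO (0.58 SE, adjusted p = 0.00151). Igfbp1 was the 1 member called in each diet, against 2.94%, 2.12% and 1.85% of all genes in EtOH, HF and CHO. The EtOH call was lost without EtOH 1 h replicate 1, 2 or 3 (1.69, 2.14 and 1.89, adjusted p = 0.189, 0.0701 and 0.129), and the CHO call without CHO 1 h replicate 4 (2.48, adjusted p = 0.0884).

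At 6 h the Igfbp1 rise was smaller and uneven. The changes were 2.28, 0.75, 0.49 and 0.34 in EtOH, -0.75 and 2.14 in HF, and -0.15, 2.79 and 1.63 in CHO. The level was thus below the control piece in 2 of 9 animals. The mean of 1.03 (0.35 SE, adjusted p = 0.0186) rested on single animals, falling to 0.55 (adjusted p = 0.335) without HF 6 h replicate 4 and to 0.80 (adjusted p = 0.0859) without CHO 6 h replicate 3, and it was called in no single diet. Within scan days it was 0.96 and 1.00, with adjusted p = 0.124 and 0.119. At 24 h the changes of Igfbp1 were 1.43, -0.67 and 2.24 in EtOH, 2.98, 2.78 and 3.36 in HF, and 0.18 and 2.16 in CHO. The 3 HF animals exceeded all others. The exception to the rise, EtOH 24 h replicate 2, had the highest control level of all, 11.26. The 24 h mean of Igfbp1 was 1.74 (0.36 SE, adjusted p = 0.000371, 7 of 8 animals), 1.34 (adjusted p = 0.0896) and 2.76 within 2 scan days, and only the HF response of 3.04 was called among the diets (adjusted p = 0.000205). The scan day with 2.76 held no EtOH animal.

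Over the 12 groups of diet and state, Igfbp1 was highest in the 1 h remnants, at 11.44 ± 0.29 in CHO (SD, n = 3), 11.35 ± 0.35 in HF (n = 4) and 11.08 ± 0.41 in EtOH (n = 4). The later EtOH remnants came next, at 10.65 ± 0.40 at 6 h (n = 4) and 10.48 ± 0.28 at 24 h (n = 3), then the HF remnants at 24 h (10.02 ± 0.40, n = 4) and the EtOH controls (9.46 ± 0.92, n = 12). Below them stood the CHO remnants at 6 h (9.25 ± 1.93, n = 3) and 24 h (9.01 ± 0.86, n = 4), the HF remnants at 6 h (8.01 ± 1.32, n = 3) and the CHO and HF controls (7.82 ± 0.99, n = 8, and 6.87 ± 0.90, n = 9). In this order all 11 pairs of neighbours were closer than the sum of their SDs. The same was true of all 11 pairs for Igfbp2, Igfbp3, Igfbp4, Ghr and Socs2, of 10 for Igf1 and of 8 for Igfals. The gap in Igf1 parted the 24 h remnants, at 11.55 ± 0.07 or lower, from the others, the nearest being CHO at 6 h with 11.76 ± 0.13 (n = 3). The gaps in Igfals lay below the 1 h remnants, below the EtOH remnants at 24 h (8.38 ± 0.03, n = 3) and above the EtOH remnants at 6 h (7.35 ± 0.15, n = 4).

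Igfbp3, the main carrier of IGF1 in blood, fell at 6 h and further by 24 h. At 6 h its changes were -0.72, -0.18, -0.53 and -0.36 in EtOH, -0.49 and -0.50 in HF, and -0.92, -0.19 and -0.60 in CHO. At 24 h they were -0.62, -1.09 and -0.91 in EtOH, -1.77, -1.23 and -0.64 in HF, and -1.19 and -1.11 in CHO. Every animal fell at both times. The diets overlapped at 6 h, and at 24 h HF overlapped both other diets while both CHO falls were deeper than all 3 EtOH falls, whereas at 1 h the changes ran from -0.20 to 0.41 around zero. Averaged over diets the response of Igfbp3 was -0.50 at 6 h (0.096 SE, adjusted p = 8.8e-05) and -1.08 at 24 h (0.10 SE, adjusted p = 1.75e-09), or 1.42-fold and 2.11-fold lower. Within scan days it was -0.61 and -0.41 at 6 h, and -1.18 and -0.88 at 24 h. It was called in all diets at 24 h and in EtOH and CHO at 6 h (in HF -0.49, adjusted p = 0.0837). The EtOH call at 6 h was lost without EtOH 6 h replicate 1 or 3 (-0.36 and -0.42, adjusted p = 0.0957 and 0.0544) and the CHO call without CHO 6 h replicate 2 (-0.39, adjusted p = 0.166). The neighbours Igfbp1 and Igfbp3 therefore had called responses of opposite sign at 6 and 24 h.

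Igfbp4, another binding protein, rose at 6 h and was no longer called at 24 h. Its 6 h changes were 0.65, 0.60, 0.55 and 0.60 in EtOH, 0.59 and 0.37 in HF, and 0.33, 0.29 and 0.30 in CHO, higher in 9 of 9 animals. At 24 h they ran from -0.47 to 0.28 and 2 of 8 animals were above their control piece. The 6 h mean response of Igfbp4 was 0.46 (0.069 SE, adjusted p = 3.17e-06, 1.38-fold), with 0.53 and 0.48 within scan days, and the 24 h mean was -0.10 (95% interval -0.24 to 0.05). At 6 h Igfbp4 was called in EtOH (0.60), HF (0.48) and CHO (0.30). The HF call was lost without HF 6 h replicate 3 or 4 (0.37 and 0.59, adjusted p = 0.35 and 0.0593), and the CHO call, at adjusted p = 0.0485, was lost in 22 of 36 alternatives.

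Igfbp2 passed the test in none of the response comparisons over all scan days. Its changes ran from -0.45 to 1.55 at 1 h, from -0.87 to 0.48 at 6 h and from -1.17 to 0.34 at 24 h, with 6 of 10, 4 of 9 and 1 of 8 animals above their control piece. The mean responses of Igfbp2 were 0.39 at 1 h (95% interval 0.04 to 0.75, adjusted p = 0.173), -0.19 at 6 h (-0.57 to 0.20) and -0.38 at 24 h (-0.78 to 0.02). Within scan days the plain mean over animals was 0.65 and -0.02 at 1 h, -0.65 (adjusted p = 0.0118) and 0.08 at 6 h, and -0.57 and -0.32 at 24 h. On scan day 4, among the 24 h animals, Igfbp2 was called lower in EtOH (-0.73, adjusted p = 0.0315) and HF (-0.85, adjusted p = 0.00438). These separate limma fits held only replicates 1 and 2 of each diet, with changes of -0.29 and -1.17 in EtOH and -1.08 and -0.61 in HF. EtOH replicate 3 and HF replicate 4, scanned on other days, changed by -0.02 and -0.33. Over all scan days the 24 h responses were -0.49 in EtOH (adjusted p = 0.354) and -0.68 in HF (adjusted p = 0.124).

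Ghr, the growth hormone receptor, declined by small steps. At 6 h its changes were -0.06, -0.15, -0.28 and -0.46 in EtOH, -0.10 and 0.04 in HF, and -0.47, -0.16 and -0.34 in CHO. At 24 h they were -0.74, -0.64 and -0.64 in EtOH, 0.01, -0.33 and -0.09 in HF, and -0.50 and -0.34 in CHO. At 24 h the 3 EtOH animals lay below all 5 control animals. Averaged over diets the response of Ghr was -0.20 at 6 h (0.057 SE, adjusted p = 0.00654, 8 of 9 animals) and -0.41 at 24 h (0.059 SE, adjusted p = 2.98e-06, 7 of 8 animals). The 6 h mean lost its call without HF 6 h replicate 3 (-0.17, adjusted p = 0.0603), was -0.23 and -0.19 within scan days without a call, and the 24 h mean was -0.44 in one scan day and -0.22 (adjusted p = 0.475) in another. The latter day held only HF 24 h replicate 4 (-0.09) and CHO 24 h replicate 4 (-0.34), and no EtOH animal. By diet Ghr was called at 6 h in EtOH (-0.24) and CHO (-0.32) and at 24 h in EtOH (-0.67) and CHO (-0.42), and not in HF (-0.03 and -0.14). The HF values rest on 2 and 3 animals, and HF minus CHO was called at neither time. In HF animals left out because 1 array was marked as an outlier, Ghr was lower in the remnant. It went from 10.63 to 10.26 and from 10.54 to 9.95 at 6 h, and from 10.56 to 9.74 at 24 h. At 6 h the EtOH call was lost without EtOH 6 h replicate 3 or 4 (-0.22 and -0.16, adjusted p = 0.0912 and 0.217) and the CHO call without CHO 6 h replicate 2 or 4 (-0.25 and -0.31, adjusted p = 0.141 and 0.0541). At 24 h the CHO call was lost without either of its animals (-0.34 and -0.50, adjusted p = 0.211 and 0.0601).

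Socs2, the feedback inhibitor, was low in every remnant at 24 h. The EtOH animals went from 9.66, 9.09 and 8.63 to 6.52, 6.09 and 7.55. The HF animals went from 8.94, 8.02 and 7.94 to 6.19, 7.14 and 6.93, and the CHO animals from 7.80 and 7.90 to 6.23 and 5.95. No 24 h remnant reached the lowest of these control levels. The 24 h mean of Socs2 was -1.91 (0.36 SE, adjusted p = 0.000108, 8 of 8 animals), 3.75-fold lower, with -2.27 and -1.48 within scan days. At 1 h the changes of Socs2 ran from -0.98 to 1.84 with 5 animals up and 5 down, and at 6 h from -2.19 to 1.31 with 7 of 9 down, a mean of -0.64 that was not called (adjusted p = 0.156). Within 2 scan days, which hold fewer animals, the 6 h values of Socs2 were -1.24 and -0.75 (adjusted p = 0.0316 and 0.035). At 24 h it was called in EtOH (-2.41, adjusted p = 0.00434) and HF (-1.54, adjusted p = 0.0497) and not in CHO (-1.77, adjusted p = 0.0896). The EtOH call was lost without EtOH 24 h replicate 1 or 2 (-2.04 and -2.11, adjusted p = 0.0838 and 0.0573). The HF value shrank to -0.94 (adjusted p = 0.417) without HF 24 h replicate 1, and its call was lost in 19 of 37 alternatives.

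Counted by diet, 5 of 8 members were called in EtOH at 6 h, against 34.3% of all genes, 3 in HF against 19.3% and 5 in CHO against 29.2%. At 24 h the counts were 5 in EtOH against 14.2%, 5 in HF against 24.9% and 4 in CHO against 16.7%. Between 1 and 6 h the mean response of 5 members changed, against 32.7% of all genes. Igfbp1 fell by 2.23 (adjusted p = 0.00045), Igfals by 1.51 (adjusted p = 8.39e-11), Igfbp3 by 0.56 and Igf1 by 0.25, and Igfbp4 rose by 0.37. With renewed quantile normalization the Igf1 difference was -0.12 and no longer called (adjusted p = 0.221). Between 6 and 24 h 4 members changed, against 29% of all genes. Igfbp3 fell by a further 0.58 (adjusted p = 0.00207), Igfbp4 by 0.56 (adjusted p = 9.13e-05) and Igf1 by 0.31 (adjusted p = 0.00125), whereas the mean Igfals response was less deep by 0.48 (adjusted p = 0.00306). By diet, and in different animals, the Igfals response went from -1.98 to -0.82 in EtOH and from -1.88 to -1.31 in CHO. In HF it went from -1.36 to -1.65. The changes at 6 and 24 h overlapped in HF and in CHO, and HF had only 2 animals at 6 h (-1.72 and -0.99). Whether this course differed between diets was not tested.

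Beside these falls, the summed hepatocyte markers were slightly lower in the remnants, at 15.51 to 15.66 at 1 h, 15.51 to 15.59 at 6 h and 15.44 to 15.54 at 24 h. In the mean of diets 10.3%, 39.9% and 34.1% of all genes were called at 1, 6 and 24 h, beside which the marker counts stand. At 24 h 5 of 8 hepatocyte markers were lower, with a list median of -0.17. Stellate cell markers summed to 9.46 to 10.19 in the controls, 9.32 to 9.78 at 6 h and 9.35 to 9.62 at 24 h, with 4 of 8 lower at 6 h and 3 lower and 1 higher at 24 h. Endothelial markers summed to 10.38 to 11.05 in the controls and 10.24 to 10.71 at 24 h, where 2 of 6 were lower, while at 6 h 4 of 6 were higher. Macrophage markers were higher in 6 of 10 at 1 h and 3 of 10 at 6 h, and 3 were higher and 3 lower at 24 h. Neutrophil markers were higher in 3 of 5 at 6 h and 2 of 5 at 24 h, and of 3 cholangiocyte markers 1 was lower, at 6 h. The part of these markers in the members' responses was not tested.

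**Figure D3:**
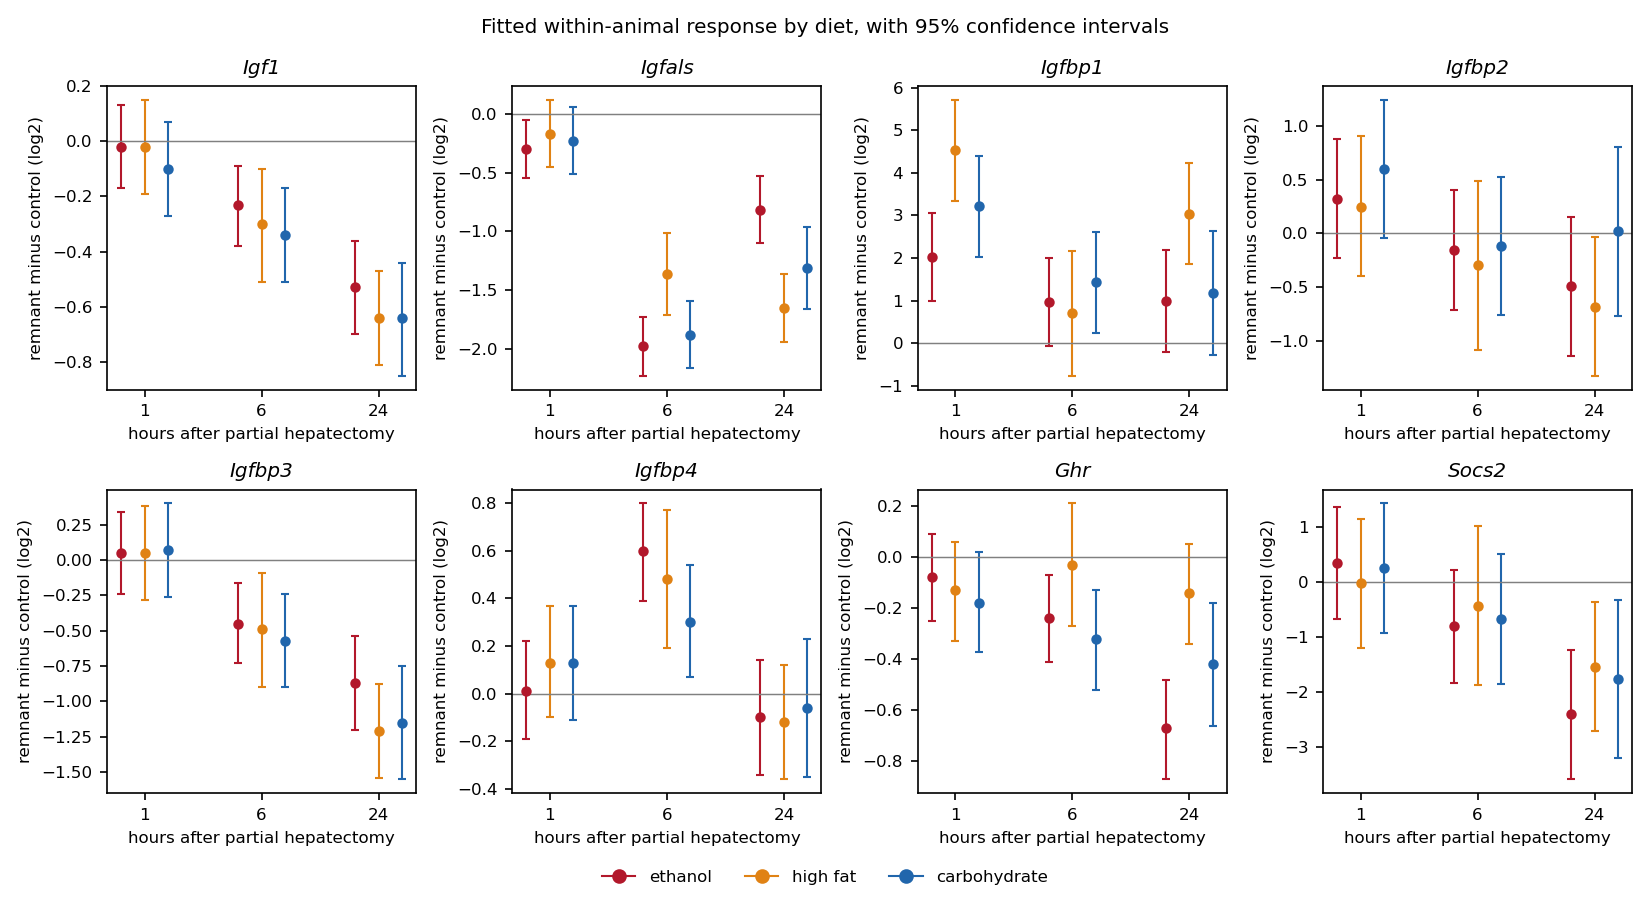
Fitted within-animal response (log2 remnant minus control piece, vertical axes) of each member by hours after surgery (horizontal axes) and diet; points are limma estimates and bars their 95% confidence intervals. Igfals is below zero in all diets at 6 and 24 h, and Igfbp1 at 1 h runs from 2.03 in ethanol to 4.53 in high fat animals.

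The response itself differed between diets for 1 member at 1 time. At 24 h Igfals fell by 0.79, 0.74 and 0.92 in the EtOH animals, by 2.03, 1.37 and 1.55 in HF, and by 0.89 and 1.74 in CHO. The EtOH falls were thus smaller than those of 4 of the 5 control animals and overlapped with CHO 24 h replicate 2. The control pieces of these animals stood at 9.19, 9.09 and 9.33 in EtOH, 9.87, 9.54 and 9.53 in HF, and 9.24 and 9.80 in CHO. In the 24 h remnants the Igfals level differed by 0.23 (95% interval -0.09 to 0.55, limma adjusted p = 0.45). The part of the control levels in the difference between responses was not tested. The EtOH minus controls difference in the Igfals response was 0.66 (0.18 SE, 95% interval 0.30 to 1.03, adjusted p = 0.0216), the only 1 of 8 members called in a comparison that called 6.29% of all genes. It lost the call in 7 of 36 alternatives. Among these were EtOH 24 h replicate 1 or 2 left out (0.65 and 0.63, adjusted p = 0.0886 and 0.0595) and CHO 24 h replicate 4 left out (0.45). Array weights (0.63, adjusted p = 0.0994) and all arrays as titled (0.42, adjusted p = 0.175) also lost it. Ghr at 24 h had a difference of the other sign, -0.39 (95% interval -0.64 to -0.14), with adjusted p = 0.0526. The smaller Igfbp1 rise of EtOH animals at 1 h, -1.85 relative to the controls (95% interval -3.18 to -0.51, unadjusted p = 0.00851), had an adjusted p of 0.999 in a comparison in which limma called 0 of 8 members and 0.0% of all genes, with 1 member and 522 genes at an unadjusted p under 0.05. At 6 h 0 of 8 members were called in limma against 3.46% of all genes, Igfals alone having an unadjusted p under 0.05 (-0.36, adjusted p = 0.298). HF minus CHO differences of the response numbered 0 of 8 members and 0.0% of all genes at 1 h, 6 h and 24 h in limma, with 0, 1 and 0 members at an unadjusted p under 0.05.

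Among the remnants, EtOH differed from the controls in 2 members at 6 h, against 3.53% of all genes. Igfbp1 stood at 11.18, 10.25, 10.48 and 10.70 in EtOH, 9.51, 6.99 and 7.53 in HF, and 7.39, 11.25 and 9.11 in CHO. All EtOH remnants were above 5 of the 6 control remnants used, and CHO 6 h replicate 3 was the highest of those used. Of the remnants left out as outliers, HF 6 h replicate 2 stood at 11.55 and CHO 6 h replicate 1 at 8.27. The Igfbp1 difference was 2.00 (0.54 SE, 4.01-fold, limma adjusted p = 0.0363), in which CHO 6 h replicate 4 had no weight. With all arrays as titled it was 1.76 (adjusted p = 0.182). With trended and robust moderation the adjusted p was 0.0964. Without CHO 6 h replicate 2 it was 0.70 (adjusted p = 0.543), without CHO 6 h replicate 3 it was 3.12, and without any EtOH array, HF 6 h replicate 3 or HF 6 h replicate 4 it lay between 1.74 and 2.12 with adjusted p between 0.0646 and 0.111. Igfals stood at 7.30, 7.34, 7.55 and 7.19 in EtOH, 7.97, 7.79 and 8.40 in HF, and 7.52, 7.98 and 7.79 in CHO, a difference of -0.54 (0.15 SE, adjusted p = 0.0394). EtOH and control remnants overlapped only through EtOH replicate 3 and CHO replicate 2, and the Igfals call was lost in 8 of the settings that leave out an animal, with values of -0.44 to -0.64. At 1 h 0 of 8 members were called in limma against 3.33% of all genes, and Igfbp1 differed by only -0.36 (95% interval -1.45 to 0.73). At 24 h 0 of 8 were called against 5.94%. At an unadjusted p under 0.05 these held 3 and 1 members. HF and CHO remnants differed in 0 of 8 members at 1, 6 and 24 h in limma, against 0.0483%, 0.0345% and 0.00689% of all genes, with 2, 0 and 0 members at an unadjusted p under 0.05. In the 6 h remnants 5 of 10 macrophage markers were also higher in EtOH, and their part in the Igfbp1 difference was not tested.

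The other genes of the IGF system in a list of 10, of which 9 were measured, had few calls. The shares of all genes called, against which the counts of this and the following lists stand, were 10.3%, 39.9% and 34.1% at 1, 6 and 24 h in the mean of diets and 16.8% for EtOH minus controls before surgery. At 1 h 1 of 9 was called, Irs1, the adaptor of the insulin and IGF1 receptors (0.38), and 1 at 6 h, Grb10, an inhibitor of these receptors (0.27, at a mean level of 3.87 under the array medians). At 24 h 1 of 9 was higher and 2 lower. Igf2r, the scavenger receptor of IGF2, rose by 0.25, while Irs1 and the insulin receptor Insr fell by 0.54 and 0.47. The second ligand Igf2, at a mean level of 4.43 under the array medians, had mean responses between -0.09 and 0.03, and the receptor Igf1r between -0.09 and 0.08. Igfbp5 and Igfbp7, a further binding protein and a relative, had mean responses of -0.09 to -0.04 and -0.20 to 0.13, none of them called. Of 4 measured genes for binding protein proteases and their inhibitors, 1 was called, Htra1 at 6 h (-0.30). In the control livers 0 of these 9 and 0 of these 4 genes were called in limma between EtOH and the controls, with 1 and 2 genes at an unadjusted p under 0.05.

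Of 11 measured genes that carry or damp the growth hormone signal, 2 were higher and 1 lower at 1 h, 6 higher and 2 lower at 6 h, and 5 higher and 1 lower at 24 h, beside 10.3%, 39.9% and 34.1% of all genes. The list medians were -0.09, 0.38 and 0.06. Socs3, an inhibitor of cytokine and growth hormone receptors, rose by 0.51 at 1 h, 3.13 at 6 h and 1.31 at 24 h, a course unlike that of Socs2. At 6 h Sirpa, a membrane partner of SHP phosphatases, rose by 1.99, the phosphatase genes Ptpn1 and Ptpn11 by 1.69 and 0.57, the kinase gene Jak2 by 0.53 and Stat5b by 0.38. Cish, a STAT5 target and inhibitor like Socs2, had mean responses of 0.83, -0.12 and -0.51 that were not called, with intervals as wide as -0.06 to 1.71. Before surgery 3 of the 11 were higher in EtOH livers and 0 lower, namely Prlr (2.04), Stat5b (0.58) and Stat5a (0.47), while Ghr itself differed by -0.00 (95% interval -0.11 to 0.11).

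Of 7 measured genes that growth hormone regulates in rodent liver, 0 were called at 1 h in limma, with 0 at an unadjusted p under 0.05. At 6 h 2 were lower, a smaller share than the 39.9% of all genes, and at 24 h 2 were higher and 4 lower, beside 34.1% of all genes. Before surgery 1 was higher in EtOH livers, A1bg (0.49), and 2 were lower, Cyp2c11 (-1.07) and Cyp7b1 (-1.29), beside 16.8% of all genes. Cyp2c11, a male-type cytochrome of the rat, fell by 1.16 at 24 h, and Cyp7b1 rose by 0.86. The list of insulin-repressed and FOXO-linked genes had 5 of 6 genes higher at 1 h, with a list median of 0.88. Ppargc1a, a coactivator of gluconeogenesis, rose by 2.17, Pdk4, which restrains glucose oxidation, by 1.57, Foxo3 by 0.82 and Pck1, for a gluconeogenic enzyme, by 0.50 in 10 of 10 animals. At 24 h, when Igfbp1 was still raised, 5 of 6 were lower and 1 higher. Pck1 was lower by log2 -0.78, Foxo1 by -0.86 and G6pc1, for the last enzyme of glucose release, by -1.53, and Pdk4 was higher by 0.99. Before surgery the EtOH livers had more Pdk4 (2.44) and G6pc1 (1.67) and less Foxo1 (-0.36) and Foxo3 (-0.45), 2 of 6 higher and 2 lower, with Pck1 at 0.13 (adjusted p = 0.273).

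**Figure D4:**
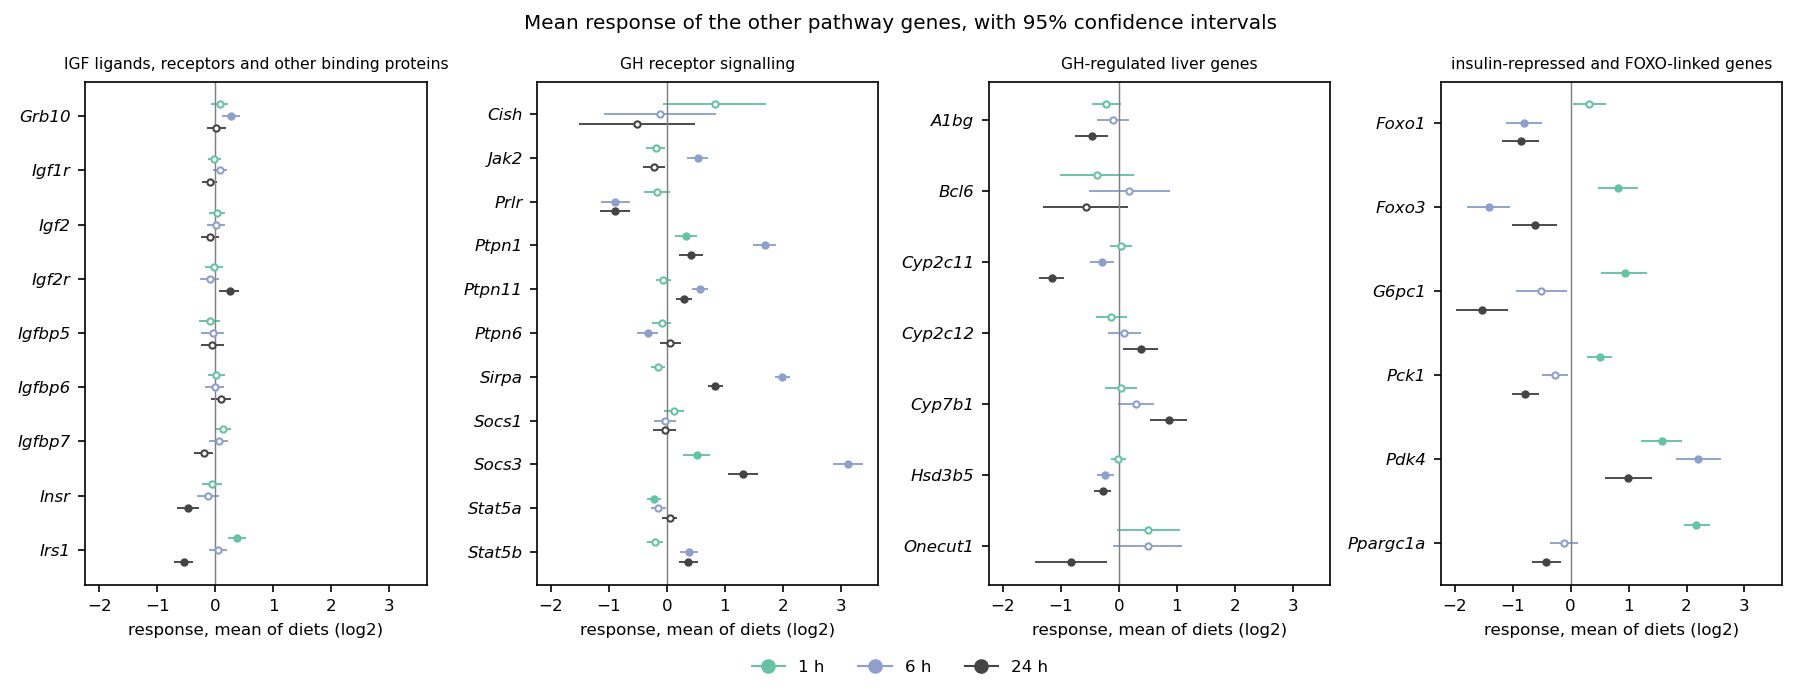
Mean response over the diets (log2, horizontal axes) of the other pathway genes of 4 lists at 1, 6 and 24 h, with 95% confidence intervals; filled points passed the test. Socs3 and Pdk4 stand furthest to the right at 6 h (3.13 and 2.20), and Ppargc1a at 1 h (2.17).

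The genes whose within-animal changes were most like those of each member, by Pearson's r over the 27 animals, are given as a description, since animals of 3 times are pooled and those of 1 time share their scan days. For Igfbp1 they were Pnrc1 (r = 0.781), Ip6k2 (0.762) and Depp1 (0.752). The mean response of Pnrc1 was 0.96 at 1 h, -0.11 at 6 h and 0.24 at 24 h. For Igfals they were Pde3b (0.947), Slco2a1 (0.941) and Bcar1 (0.940), with Pde3b at 0.08, -1.45 and -0.68. Igf1 was followed most closely by Cpq (0.952), F12 (0.934) and Lipc (0.934), which fell by more than Igf1 at 24 h, by 1.35, 0.82 and 1.12. The genes nearest to Igfbp3 were Pam (0.892), Macrod1 (0.886) and Cyp2d3 (0.883), and those nearest to Igfbp4 were Supt5h (0.916), Nherf1 (0.903) and Top1 (0.895). Socs2 was nearest to Myc (0.852), Dmgdh (0.748) and Rida (0.747), although Myc rose by 2.05 at 1 h where Socs2 had a mean response of 0.19. The r values were lower for Ghr, with Lifr (0.770), Tfec (0.716) and C1qa (0.714), and for Igfbp2, with Ptgis (0.740), Sparcl1 (0.738) and Acsm5 (0.730).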

How the data were processed

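Liver RNA was measured on Affymetrix Rat Gene 1.0 ST arrays. Per the submitters' processing notes, the authors made the values with RMA in Affymetrix Expression Console. The deposited tables hold log2 values. The main table is the authors' batch-corrected one, made, per the file headers, by a mixed-effects ANOVA. It was checked that it departs from the value table by 1 constant per probe set and scan day, with a mean absolute shift of 0.115 to 0.219. Of 29214 probe sets, 15310 have 1 gene symbol, 323 several and 13581 none in the annotation used. Each of the 14506 genes is represented by its brightest probe set, by mean over the arrays.

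Responses were fitted in limma 3.58.1 (R 4.3.3) on 54 arrays of 27 animals with the animal as block and 18 residual degrees of freedom. Control livers were fitted on 29 arrays and remnants on 32, with the scan day as block and 19 and 18 residual degrees of freedom. In each of 30 comparisons, a gene was called when its p, adjusted by the Benjamini-Hochberg method across all genes, was under 0.05. EtOH minus controls is EtOH minus the mean of HF and CHO, and the mean of diets weights the 3 diets equally. Within a single scan day the plain mean over the day's animals takes its place. The fits were tested on simulated data with an added animal effect. Of changes of 0.5, 93% were called for the 6 h mean response and 79% for EtOH minus controls before surgery. For EtOH minus controls in the 6 h remnants 28% were called. Of changes of 1.0, 98%, 99% and 89% were called. A remnant comparison without a call therefore does not show that a small difference is absent. The number of animals limits the precision.

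The labels name the animal of each array, which gives the pairing. Deviations from the group mean in an animal's 2 arrays had a median r of 0.197 (-0.699 to 0.445, 27 pairs). Of the 63 columns of the authors' table without outliers, 61 correlated best with the array of their name. The other 2 (r with their own names 0.276 and -0.365, with the same animals' PHx arrays 0.985 and 0.992) were left out as controls.

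The members, 5 pathway lists and 6 marker lists were chosen with earlier results of these data known. All 8 members are named, at most 4 called genes of a list with the smallest p, a fixed set (Igf2, Igf1r, Jak2, Stat5b, Cish, Socs3, Igfbp5, Igfbp7, Foxo1 and Pck1) and the 3 genes most like each member. Alternatives were other blocks, tables, normalization, filters, weights, priors and probe set choices, single scan days and cohorts, and each of 34 animals left out in turn. matplotlib 3.10.9 (Python 3.11.15) drew the figures.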

Additional observations from a re-analysis of the deposited data

Results flagged for a closer look

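The groups of 4 animals were searched for a value far from the rest, which chance alone gives in about 1 of 20 groups. Of 72 groups, 2 held one. The Igfbp1 level of EtOH 1 h replicate 4 was 10.47, where the other EtOH remnants at 1 h had 11.25 to 11.30. The Igfbp4 change of EtOH 1 h replicate 2 was -0.16, where the other EtOH animals at 1 h had 0.05 to 0.09.

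The response was found to differ between diets by a limma test of the difference itself for Igfals at 24 h, by 0.66 (adjusted p = 0.0216), the EtOH fall being the smaller. The Igfals level of the 24 h remnants differed by 0.23 (limma adjusted p = 0.45). Between times, in different animals, the mean response differed from 1 to 6 h for Igf1 (-0.25), Igfals (-1.51), Igfbp1 (-2.23), Igfbp3 (-0.56) and Igfbp4 (0.37), with adjusted p of 0.00484 or less in limma. The Igf1 value was -0.12 (adjusted p = 0.221) with renewed quantile normalization. From 6 to 24 h it differed for Igf1 (-0.31), Igfals (0.48), Igfbp3 (-0.58) and Igfbp4 (-0.56), with adjusted p of 0.00306 or less in limma. In HF the Igfals response was -1.36 at 6 h (2 animals) and -1.65 at 24 h. Whether the course from 6 to 24 h differed between diets was not tested.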

How the results depend on the processing

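No called value changed sign. Of 586 values of called members under other settings, 545 kept the call, as did 1504 of 1582 with an animal left out. Among values that were not called, 55 of 1814 and 35 of 5202 became so. The counts of members called (of 8) moved by over 1.5 times, or to or from 0, as follows. With trended and robust moderation the count went from 1 to 0 for the 1 h EtOH response, from 1 to 2 for the 1 h mean and for EtOH minus controls of the 24 h response, and from 2 to 1 for EtOH minus controls in the 6 h remnants. Renewed quantile normalization gave 3 in place of 5 for the 6 h EtOH response, 2 in place of 1 for EtOH minus controls and EtOH minus HF before surgery, and 1 in place of 2 in the 6 h remnants. With all arrays as titled it was 5 in place of 3 for the 6 h HF response, 3 in place of 1 for the 1 h mean, 1 in place of 2 in the 6 h remnants and 1 in place of 0 in the 24 h remnants (EtOH minus controls). The authors' table without outliers and a filter on dim genes both gave 2 in place of 1 for the 1 h mean and for EtOH minus controls of the 24 h response. Array weights gave 2 for the first, 0 for the second and 1 in place of 0 for EtOH minus controls in the 1 h remnants. Within scan day 7 there were 2 for the 1 h mean and 2 for the 1 h HF response, and within scan day 8 there were 0 for the 1 h CHO response. Before surgery, without the scan day as block, there were 3 for EtOH minus controls and 2 for EtOH minus CHO. The 1 h cohort alone gave 0 for EtOH against the controls, HF and CHO, the 6 h cohort 0 against CHO, and the 24 h cohort 2 against the controls and 2 against CHO. Smaller shifts included the 24 h minus 6 h count, 4, which was 6 with all arrays as titled and with the filter on dim genes (Ghr and Socs2 added), and 5 under other settings. The 24 h mean, 6, was 8 with all arrays as titled (Igfbp2 and Igfbp4 added). The 6 h mean, 6, was 5 with trended and robust moderation (Igfbp1 lost, adjusted p = 0.0531) and with renewed quantile normalization (Ghr lost, -0.12, adjusted p = 0.0649). The 6 h minus 1 h count, 5, was 4 under renewed quantile normalization, where Igf1 was -0.12 (adjusted p = 0.221). Trended and robust moderation also took Socs2 from the 24 h HF response. The cause of these shifts was not tested.

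Without the replicate block, and with the animal as a random replicate block, EtOH minus controls of the 24 h response called 0 members in place of 1, Igfals having 0.66 in both (adjusted p = 0.074 and 0.0526). Control animals of the same number share only a number (r -0.311 to 0.241 over 25 pairs), and a replicate block by cohort and number called 2 in place of 1 before surgery for EtOH minus controls and for EtOH minus CHO.

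With each animal left out in turn the counts ran from 0 to 1 for the 1 h EtOH and CHO responses, 3 to 5 for EtOH, 1 to 4 for HF and 2 to 5 for CHO at 6 h, 4 to 5 for EtOH and HF and 3 to 4 for CHO at 24 h, 1 to 2, 5 to 7 and 6 to 7 for the mean of diets at 1, 6 and 24 h, 5 to 6 for 6 h minus 1 h, 4 to 6 for 24 h minus 6 h, 0 to 2 for EtOH minus controls of the 24 h response, 1 to 2 for EtOH minus controls and EtOH minus HF before surgery, and 0 to 2 and 0 to 1 for EtOH minus controls in the 6 h and 24 h remnants. The counts of the other comparisons did not move with any animal left out. No detection calls were used, so values of dim probe sets such as Igfbp2 are limited by signal over background.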
